A study of Glycine max with 6 samples.

Results

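Gibberellin and cytokinin genes of soybean (*Glycine max*) roots were examined at 2 pH-treatments. Members were chosen by words in the gene descriptions of the deposited files, and the rule itself uses no expression value, although it was set with earlier results of these data known. A gene entered the gibberellin list when its description named gibberellin, ent-kaurene or ent-copalyl, and the cytokinin list when it named cytokinin, adenylate isopentenyltransferase, a two-component response regulator or a histidine kinase. Genes whose description named DELLA were left out. The rule found 67 gibberellin genes and 134 cytokinin genes, 201 of the 48667 genes that the files list, and no gene was in both lists. Descriptions came from sequence similarity, so a name says what a gene resembles. In the 9 role classes whose KEGG orthology term was on no member of another class, 88 of 90 members carried that term. The term for cytokinin receptors was also on all 4 histidine kinase 1 genes and the term for type-B response regulators on 6 pseudo-response regulators, so these terms do not tell such classes apart.

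Control roots came from plants kept in hydroponic solution at pH 5.8 and acid-treated roots from plants kept at pH 4.2, both for 30 days and with the same nutrient recipe. The paper states that pH was readjusted daily with potassium hydroxide or sulfuric acid. The amounts are not given, so added potassium or sulfate cannot be told apart from pH. Each treatment had 3 replicates, and each replicate was 1 library made from the roots of 2 plants. Sample labels name the genotype YC03-3, whereas the paper's methods name Huachun 6. Whole roots were used, so fewer cells of a type and less RNA per cell cannot be told apart in any value below.

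Gibberellins are diterpenoid hormones that promote cell elongation. Plastid enzymes make ent-kaurene and oxidise it, 20-oxidases and 3-oxidases then produce the active forms, and 2-oxidases inactivate them. The active hormone binds the receptor GID1, which leads to the breakdown of the DELLA repressors. Cytokinins are adenine derivatives that promote cell division and restrain root elongation and lateral root formation. Isopentenyltransferases start their synthesis, LOG enzymes release the active bases, and cytokinin dehydrogenases degrade them. Receptor histidine kinases sense the hormone and pass phosphate, through phosphotransfer proteins, to response regulators.

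Expected counts per library summed to between 9137226 and 9358750, and 3 counts corresponded to between 0.312 and 0.340 CPM (counts scaled to 1 000 000 per library). CPM values below are scaled to TMM effective library sizes. Control replicate 2 stood apart from the other controls, at -11.5 on the first principal component of log2 CPM, where the other controls lay at 60.1 and 103 and the acid-treated libraries between -74.0 and -23.1. All 17 genes of a root marker list (Casparian strip membrane proteins and SHORT-ROOT) were detected, with a summed FPKM of 119 to 183 in control and 148 to 165 in acid-treated roots. Markers of green tissue, 37 genes for chlorophyll-binding proteins and the small Rubisco subunit, were also detected, at a summed FPKM of 1295 to 2082 in control and 1493 to 2354 in acid-treated roots. The 2 leghemoglobin genes, which mark nodules, summed to an FPKM of 109 to 181 and 163 to 188, respectively. These ranges overlapped between the pH-treatments. Of single marker genes, the SHORT-ROOT-like gene Glyma.15G028600 fell from 13.6 ± 6.51 to 1.14 ± 0.0276 CPM (SD, n = 3, edgeR adjusted p = 0.0199) and no other was called. At an unadjusted p-value under 0.05 from edgeR 4 of the 17 root markers were lower and 0 higher, where 7.61% of all genes tested were lower. Of 32 green tissue markers tested, 2 were higher and 0 lower at that p-value, where 4.21% of all genes were higher. The part of such tissues in the results was not tested.

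Compared to control, no gibberellin gene passed the test. The quasi-likelihood fit of edgeR called 0 of the 31 gibberellin genes tested as DEGs (adjusted p-value under 0.05 over all genes and at least a 2-fold change), against 0.558% of all 33490 genes tested. At an unadjusted p-value under 0.05, 2 gibberellin genes had higher and 4 had lower values in acid-treated roots, 6.45% and 12.9% of the 31, where the shares of all genes were 4.21% and 7.61%. Limma-trend on log2 FPKM called 0 of them, and DESeq2 called 3, with 2.77% of all genes called by DESeq2. The median log2 fold change (acid-treated over control) was -0.07 over these 31 genes and -0.003 over all genes tested. The log2 fold change was above 0 in 14 of the 31 and below 0 in 17, where the shares of all genes were 49.7% and 50.3%. The other 36 gibberellin genes had too few counts to be tested.

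**Figure D1:**
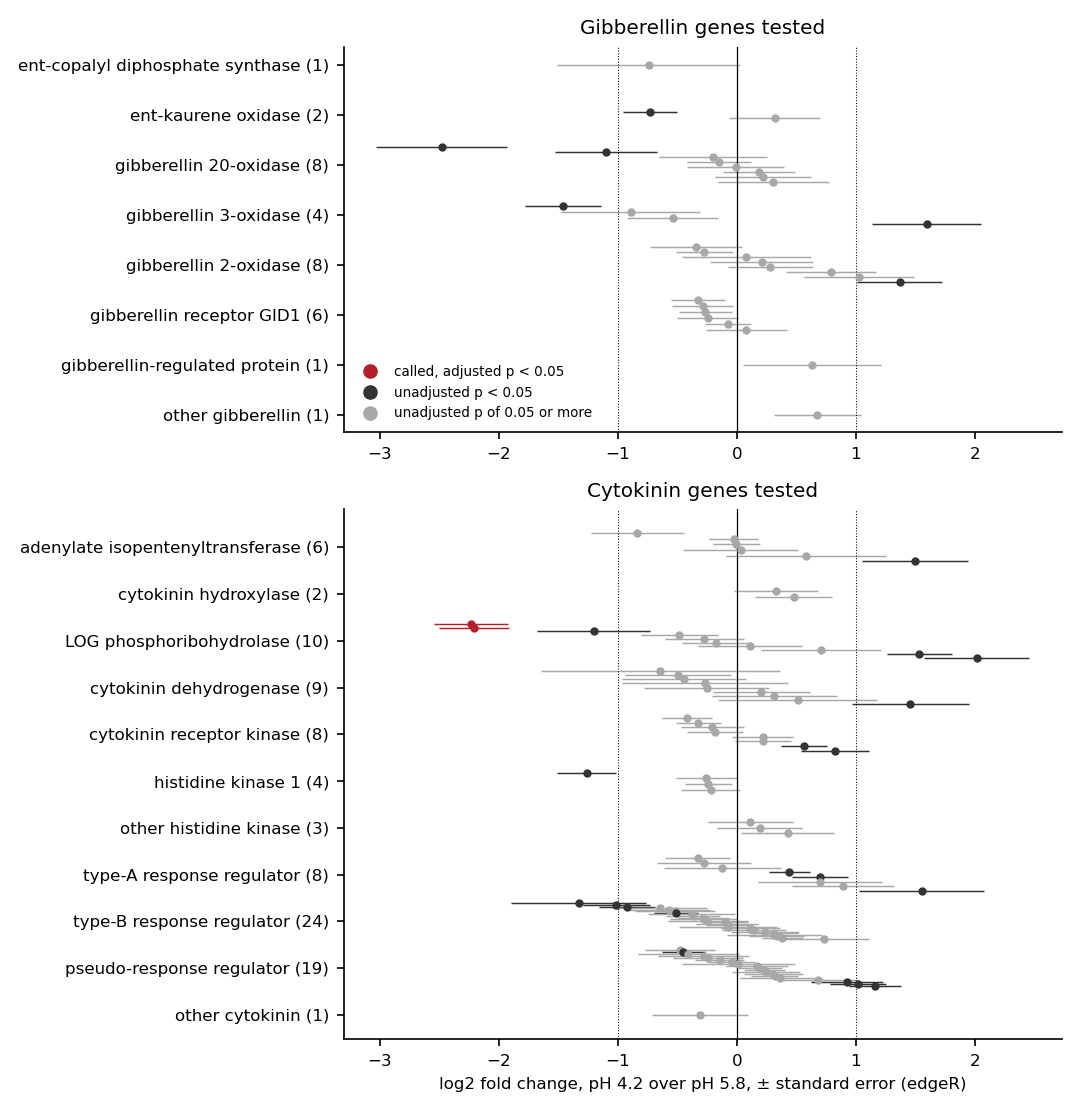
Log2 fold change (x axis, acid-treated over control, edgeR, bars show the standard error) of each gene tested, grouped by role, with gibberellin genes above and cytokinin genes below. Numbers in brackets count the genes tested, dotted lines mark a 2-fold change, and only 2 LOG genes, at -2.21 and -2.23, are shown as called.

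Early gibberellin synthesis was represented by 2 ent-copalyl diphosphate synthase and 2 ent-kaurene oxidase genes. Glyma.13G371400 was the main ent-kaurene oxidase gene, which converts ent-kaurene to ent-kaurenoic acid, and held 93.1% of the FPKM of its class. It was measured at 42.7, 34.1 and 32.5 CPM in control replicates 1 to 3 and at 16.5, 24.1 and 25.3 CPM in the acid-treated replicates. All acid-treated libraries lay below all controls, but the log2 fold change of -0.73 (standard error, SE, 0.23) was not called (edgeR adjusted p = 0.230). The second oxidase gene, Glyma.15G002200, was far lower, with a mean FPKM of 1.23 against 16.5, and its pH-treatments overlapped. For ent-copalyl diphosphate synthase, which forms the first gibberellin-specific intermediate, the more abundant gene Glyma.03G154700 reached a mean FPKM of only 0.808. Values were 0.416 CPM in control replicate 3, 3.91 and 3.54 CPM in replicates 1 and 2, and 0.792 to 2.76 CPM in acid-treated roots, so the groups overlapped (edgeR adjusted p = 0.758).

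Gibberellin 20-oxidases carry out the successive oxidations that lead to the direct precursors of active gibberellins. Of the 13 genes described so, 8 were tested. Glyma.16G200800 (gibberellin 20-oxidase 2) had the lowest log2 fold change of the 31 gibberellin genes tested. Its control libraries held 6.67, 3.50 and 10.3 CPM and its acid-treated libraries 0.805, 0.743 and 2.15 CPM, so the groups did not overlap. The log2 fold change was -2.48 (SE 0.55, edgeR adjusted p = 0.109), a 5.57-fold lower level at pH 4.2. DESeq2 called it (adjusted p = 0.00384), and so did edgeR without control replicate 2 (adjusted p = 0.0279). Leaving out that library also raised the calls over all genes, from 187 to 1122. With any other single library left out Glyma.16G200800 was not called (edgeR adjusted p up to 0.423). Expected counts of this gene had decimals in 5 of 6 libraries, so RSEM had shared reads between it and another gene.

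Another 20-oxidase gene, Glyma.20G153400 (*GA20OX8* in RefSeq), gave 2.39, 6.76 and 4.79 CPM at pH 5.8 and 2.15, 2.44 and 1.89 CPM at pH 4.2. It had an unadjusted p of 0.0321 from edgeR, but control replicate 1 lay below acid replicate 2. The most abundant member was Glyma.02G136000, with 37.9% of the FPKM of the class. This gene varied more within a treatment than between treatments, from 17.8 to 73.4 CPM in acid-treated roots and from 23.1 to 44.5 CPM in control roots (edgeR adjusted p = 0.831). Summed over the class, FPKM was 82.3 ± 22.6 in control and 78.9 ± 31.5 in acid-treated roots (SD, n = 3).

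Gibberellin 3-oxidases (3-beta-dioxygenases) complete the synthesis of the active hormone, and 4 of the 9 genes were tested. Log2 fold changes were above 0 in 1 of the 4 and below 0 in 3, with a class median of -0.72. Acid-treated libraries lay wholly above the controls in 1 and wholly below in 2, where the shares of all genes were 7.17% and 9.24%. The 2 with the smallest p-values differed in opposite directions. Of these, Glyma.03G009600 carried the KEGG term of 20-oxidases and not that of 3-oxidases. The other 2 tested carried the 3-oxidase term and had log2 fold changes of -0.89 and -0.54, and neither was called. Glyma.13G361700 (*GA3OX3* in RefSeq), which held 66.7% of the FPKM of the class, was measured at 8.03, 36.3 and 17.5 CPM at pH 5.8 and at 58.0, 69.1 and 59.8 CPM at pH 4.2. All acid-treated libraries were higher than all controls, and control replicate 2 was nearest to them. The log2 fold change was 1.60 (SE 0.46, edgeR adjusted p = 0.199). Without control replicate 2 it was 2.29 and the gene was called (edgeR adjusted p = 0.0161), as it was with DESeq2 (adjusted p = 0.0186). The edgeR fit without control replicate 2 called 1122 genes over all genes, against 187 with all libraries. No other fit with 1 library left out called Glyma.13G361700 (edgeR adjusted p up to 0.584).

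Glyma.03G009600, described as a gibberellin 3-beta-dioxygenase 4-like gene, had 9.66, 13.3 and 13.9 CPM at pH 5.8 and 6.45, 3.29 and 3.67 CPM at pH 4.2. The groups did not overlap, with a log2 fold change of -1.46 (SE 0.32, edgeR adjusted p = 0.106 and 0.0138 from DESeq2). The summed FPKM of the 9 genes, mostly from Glyma.13G361700, was higher in every acid-treated library than in any control. It was 18.3, 42.6 and 29.2 in control and 43.7, 49.5 and 44.4 in acid-treated roots, where control replicate 2 came close to the lowest acid-treated library. Over the 8 genes with the 3-oxidase term alone, it was 9.47, 30.3 and 16.1 in control and 37.9, 46.4 and 41.1 in acid-treated roots.

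Gibberellin 2-oxidases inactivate the hormone or its precursors and formed the largest class, with 28 genes, of which 8 were tested. Positive log2 fold changes were found for 6 of the 8, with a class median of 0.25, and in 3 genes all acid-treated values exceeded all control values, while the reverse held in 0. Over all genes tested, 7.17% lay wholly above and 9.24% wholly below. Glyma.13G218200 (*GA2OX5* in RefSeq) differed most, at 2.50, 2.47 and 1.35 CPM at pH 5.8 and 5.09, 6.58 and 4.67 CPM at pH 4.2. Its log2 fold change was 1.37 (SE 0.36, edgeR adjusted p = 0.161). The most abundant gene, Glyma.18G061300, differed little, at 11.9 ± 1.58 CPM at pH 5.8 and 9.88 ± 1.94 CPM at pH 4.2 (SD, n = 3).

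**Figure D2:**
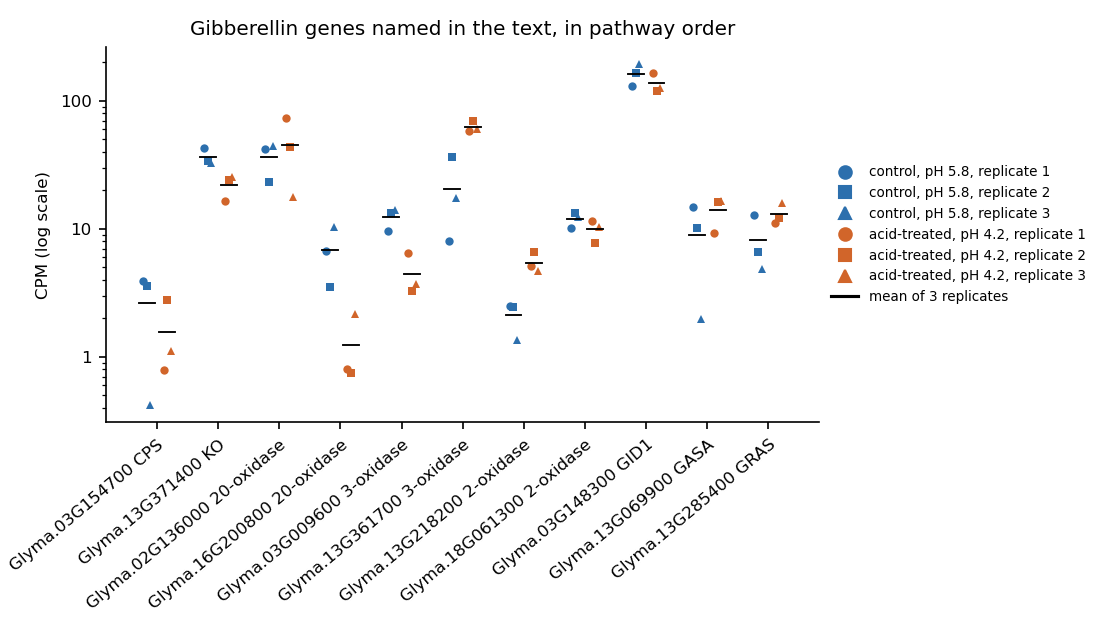
CPM on a log axis for each library (points, 3 control and 3 acid-treated) of the named gibberellin genes in pathway order, with the mean as a line. CPS is ent-copalyl diphosphate synthase, KO ent-kaurene oxidase, GASA a gibberellin-regulated protein and GRAS the chitin-inducible gene. Acid-treated points lie above the controls for the 3-oxidase gene Glyma.13G361700 (58.0 to 69.1 against 8.03 to 36.3) and below them for the 20-oxidase gene Glyma.16G200800 (0.743 to 2.15 against 3.50 to 10.3).

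The receptor GID1 was encoded by 6 genes, all of them tested, and this was the most abundant gibberellin class. Summed FPKM was 203 ± 43.0 in control and 175 ± 24.4 in acid-treated roots (SD, n = 3). Every one of the 6 overlapped between treatments, with log2 fold changes from -0.33 to 0.08 and no adjusted p below 0.646 from edgeR. The highest was Glyma.03G148300, with a mean FPKM of 75.6 and with 131, 164 and 194 CPM in control against 166, 119.7 and 127 CPM in acid-treated roots. Of the genes downstream, the only gibberellin-regulated (GASA) protein gene tested out of 6, Glyma.13G069900, ranged from 1.98 to 14.9 CPM at pH 5.8 and from 9.28 to 16.4 CPM at pH 4.2. A chitin-inducible gibberellin-responsive gene of the GRAS family, Glyma.13G285400, held 8.12 ± 4.24 CPM at pH 5.8 and 12.98 ± 2.49 CPM at pH 4.2 (SD, n = 3, edgeR adjusted p = 0.539). Its KEGG term was that of DELLA proteins, but its description did not name DELLA, so it stayed in the list.

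Gibberellin genes outside the word rule were taken from a list of other descriptions. Neither of the 2 ent-kaurenoic acid oxidase genes differed beyond the replicate spread, with log2 fold changes of -0.10 and 0.05. A single ent-kaur-16-ene synthase gene, Glyma.08G163900, which was looked up after the other values had been seen, had a log2 fold change of -0.08 (SE 0.43). Of 5 SPINDLY genes and 3 GID2 genes, none was called. Among 11 DELLA genes, 9 were tested and 1 was called, where 0.558% of all genes were called. It was the RGL2-like gene Glyma.09G036500, which fell from 5.23 ± 0.828 to 1.07 ± 0.141 CPM (SD, n = 3, log2 fold change -2.28, edgeR adjusted p = 0.0363). Its call was lost with replicate number as a block in the edgeR fit (adjusted p = 0.143). At an unadjusted p-value under 0.05, 3 DELLA genes including Glyma.09G036500 were lower and 1 was higher. The shares of all genes were 7.61% and 4.21%. Glyma.06G213100 had 22.7 ± 3.03 and 13.6 ± 0.721 CPM, Glyma.18G040000 181 ± 5.14 and 125 ± 13.9 CPM, and Glyma.10G190200 3.91 ± 0.136 and 6.23 ± 0.341 CPM at pH 5.8 and pH 4.2 (SD, n = 3), all without overlap and none of them called. Glyma.11G216500, the most abundant by CPM, had 271 ± 26.1 and 195 ± 27.5 CPM (SD, n = 3), also without overlap. The tested DELLA genes Glyma.04G150500, Glyma.05G140400, Glyma.08G095800 and Glyma.15G141400 did overlap between treatments. Of all genes tested, 9.24% lay wholly below and 7.17% wholly above the controls.

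For cytokinin, 2 genes passed the test, and both were LOG genes that fell in acid-treated roots. Of the 134 cytokinin genes 94 were tested, so the 2 calls were 2.13% of them, against 0.558% of all genes called in either direction and 0.331% called lower. At an unadjusted p-value under 0.05, 12 cytokinin genes had higher and 9 had lower values at pH 4.2. These were 12.8% and 9.57% of the 94, where the shares of all genes were 4.21% and 7.61%. The counts include 3 genes that passed the filter on low counts through 1 treatment only and so had to differ. Without such genes, 10 of 91 cytokinin genes were higher and 8 lower, 10.99% and 8.79%, against 3.95% and 7.31% of all genes. The median log2 fold change of the 94 was -0.03. Without control replicate 2 edgeR called 9 cytokinin genes, but calls over all genes also rose, from 187 to 1122. Without control replicate 3 it called 1 cytokinin gene and 69 over all genes. Without any other single library it called 0 cytokinin genes and between 7 and 95 over all genes.

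Cytokinin synthesis begins with adenylate isopentenyltransferases, of which 9 genes were listed and 6 tested. The leading gene was Glyma.17G017400, with 55.6% of the FPKM of the class. It was measured at 69.9, 51.0 and 60.9 CPM at pH 5.8 and at 63.1, 63.4 and 54.6 CPM at pH 4.2, a log2 fold change of -0.01 (SE 0.20). A weakly expressed member, Glyma.17G045700, had 0.651, 0.536 and 0.625 CPM at pH 5.8 and 1.81, 1.38 and 2.003 CPM at pH 4.2 (log2 fold change 1.497, SE 0.45, edgeR adjusted p = 0.217). Its groups did not overlap, but it passed the filter on low counts only through the acid-treated libraries and so had to differ. Summed FPKM of the class was nearly equal, at 73.2 ± 6.70 in control and 70.7 ± 5.59 in acid-treated roots (SD, n = 3).

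Cytokinin hydroxylases convert the first products to the trans-zeatin type. Only 2 of the 7 genes were tested, and neither was called. The more abundant of them, Glyma.18G297200, was measured at 3.36, 8.26 and 7.08 CPM at pH 5.8 and 6.34, 8.91 and 8.24 CPM at pH 4.2, which overlapped. Summed over the 7 genes, FPKM was 3.57, 6.35 and 6.85 in control and 10.5, 8.08 and 7.33 in acid-treated roots, where the lowest acid-treated library lay just above the highest control.

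LOG enzymes, the cytokinin riboside 5'-monophosphate phosphoribohydrolases, cut the ribose phosphate from cytokinin nucleotides and so release the active bases. Both cytokinin DEGs belong to this class of 16 genes, of which 10 were tested. Glyma.04G025100, described as LOGL10 and the most abundant of the class, held 21.9, 18.7 and 34.9 CPM at pH 5.8 and 6.34, 5.41 and 4.57 CPM at pH 4.2. It fell 4.62-fold, a log2 fold change of -2.21 (SE 0.29, edgeR adjusted p = 0.0228). Every acid-treated library was below every control by a wide margin.

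Glyma.06G025200, described as LOG1, showed the same pattern. Its values were 16.6, 11.97 and 21.5 CPM at pH 5.8 and 2.72, 4.46 and 3.44 CPM at pH 4.2, a 4.70-fold decrease (log2 fold change -2.23, SE 0.31, edgeR adjusted p = 0.0266). In both genes control replicate 2 was the lowest and control replicate 3 the highest of the controls. Both were called by DESeq2, by limma-trend and under other filters. The calls were lost with replicate number as a block in the edgeR fit and in most fits with fewer libraries. With 1 library left out, Glyma.04G025100 was called in 2 of 6 fits (without control replicate 2 or 3) and Glyma.06G025200 in 1 of 6 (without control replicate 2). Log2 fold changes of these fits ranged from -2.38 to -1.89 for Glyma.04G025100 and from -2.42 to -2.00 for Glyma.06G025200. Counts were not whole numbers in 2 libraries of each gene, so a few reads could have been shared with a similar gene.

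Other LOG genes had higher values at pH 4.2. Glyma.06G053000, described as LOG8-like, gave 4.02, 4.18 and 5.10 CPM at pH 5.8 and 16.2, 12.7 and 9.68 CPM at pH 4.2. With no overlap and a log2 fold change of 1.53 (SE 0.27), it was not called by edgeR (adjusted p = 0.0629) but was by DESeq2 (adjusted p = 0.00113) and by edgeR without control replicate 2 (adjusted p = 0.0480). No other fit with 1 library left out called it (edgeR adjusted p up to 0.283). Glyma.03G200800, a LOG7 gene, had 0.605, 0.429 and 0.520 CPM in control against 1.89, 2.42 and 2.19 CPM in acid-treated roots (log2 fold change 2.02, SE 0.44, edgeR adjusted p = 0.104). This gene, too, passed the filter on low counts only through the acid-treated libraries, and its counts had decimals in 4 libraries.

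Across the other 6 LOG genes tested, log2 fold changes ranged from -1.20 to 0.71 and none was called. The lowest of them was that of Glyma.11G145100, described as LOG1, at 10.96, 3.65 and 14.7 CPM at pH 5.8 and 5.32, 3.50 and 3.90 CPM at pH 4.2. Control replicate 2 lay among the acid-treated libraries here, and without it the gene was called (log2 fold change -1.59, edgeR adjusted p = 0.0321). It was not called with any other library left out. Summed FPKM of all 16 LOG genes was 68.8, 50.8 and 88.1 in control and 42.7, 45.4 and 35.2 in acid-treated roots, 0.594 times the control mean. The sums did not overlap, and Glyma.04G025100 made up 21.9% of the mean sum.

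**Figure D3:**
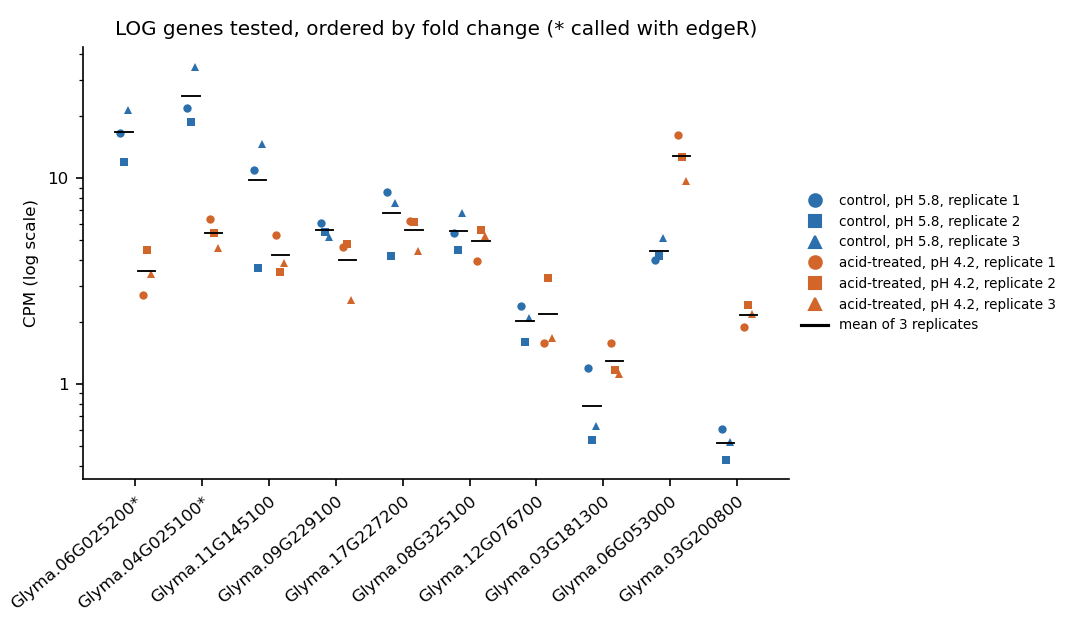
CPM on a log axis for each library (points) of the 10 LOG genes tested, ordered by fold change, with the mean of 3 replicates as a line and an asterisk on the genes called. Acid-treated points of Glyma.06G025200 (2.72 to 4.46) and Glyma.04G025100 (4.57 to 6.34) lie below all control points, and those of Glyma.06G053000 (9.68 to 16.2) above them.

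Cytokinin dehydrogenases, which cleave the side chain and so destroy the hormone, were 16 genes with 9 tested, and none was called. Glyma.09G225400, described as cytokinin dehydrogenase 6-like, was measured at 1.09, 1.82 and 1.25 CPM at pH 5.8 and at 5.999, 3.50 and 2.003 CPM at pH 4.2. The groups did not overlap, but acid replicate 3 was close to control replicate 2 (log2 fold change 1.46, SE 0.49, edgeR adjusted p = 0.274). The most abundant gene, Glyma.14G099000, ranged from 7.58 to 23.0 CPM at pH 5.8 and from 8.22 to 33.4 CPM at pH 4.2, and its counts were not whole numbers in any library. Summed FPKM of the class was 29.1 ± 5.37 in control and 28.5 ± 9.11 in acid-treated roots (SD, n = 3).

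Histidine kinases 2, 3 and 4 are the cytokinin receptors of Arabidopsis, and 8 soybean genes carried these names, all of them tested. The 4 genes described as histidine kinase 4 had log2 fold changes of 0.22 to 0.82, the 2 of histidine kinase 2 of -0.42 and -0.32, and the 2 of histidine kinase 3 of -0.21 and -0.19. None was called, and the difference between the 3 types was not tested. Among histidine kinase 4 genes, Glyma.05G241600 had 34.9, 63.7 and 32.5 CPM at pH 5.8 and 69.3, 75.5 and 87.1 CPM at pH 4.2. Its log2 fold change of 0.82 (SE 0.29, edgeR adjusted p = 0.292) became 1.20 without control replicate 2, where the gene was called (edgeR adjusted p = 0.0287). It was not called with any other library left out. Glyma.02G087000 had 18.7, 18.1 and 14.4 CPM at pH 5.8 and 22.3, 27.7 and 25.6 CPM at pH 4.2, with no overlap (log2 fold change 0.56, SE 0.20, edgeR adjusted p = 0.293). The most abundant receptor gene per length was Glyma.08G105000, a histidine kinase 3, with a mean FPKM of 24.1 and overlapping treatments. Both histidine kinase 2 genes had counts that were not whole numbers in any library. RSEM had thus shared reads between each of them and some other gene, and which gene that was is not known here.

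Histidine kinase 1 is known in Arabidopsis as an osmotic sensor rather than a cytokinin receptor. Of its 4 genes, Glyma.11G078300 had the highest mean FPKM of all cytokinin genes, 82.6, and overlapped between treatments, from 225 to 319.9 CPM at pH 5.8 and from 199.5 to 255 CPM at pH 4.2. Glyma.02G046600 was measured at 43.0, 29.4 and 47.6 CPM at pH 5.8 and at 19.1, 13.2 and 17.7 CPM at pH 4.2. All acid-treated libraries lay below the controls (log2 fold change -1.26, SE 0.25, edgeR adjusted p = 0.0826), and both DESeq2 (adjusted p = 0.00323) and edgeR without control replicate 2 (adjusted p = 0.0174) called the gene. No other fit with 1 library left out did so (edgeR adjusted p up to 0.378). The log2 fold changes of the 4 genes were all negative, and their summed FPKM was 132, 125 and 161 in control and 120.1, 97.5 and 106 in acid-treated roots. Among the other histidine kinases, which include CKI1 and histidine kinase 5, 3 of 4 were tested and none was called. Glyma.14G105400, the most abundant of them, ranged from 16.7 to 41.1 CPM at pH 5.8 and from 22.8 to 33.2 CPM at pH 4.2.

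Type-A response regulators are early cytokinin response genes in Arabidopsis and dampen the signal. Of 11 genes 8 were tested, none was called, and 3 had an unadjusted p-value under 0.05, each with higher values at pH 4.2, where 4.21% of all genes had higher values at that p-value. Glyma.15G236200 (ARR8) had 2.06, 11.2 and 3.54 CPM at pH 5.8 and 17.7, 16.02 and 15.6 CPM at pH 4.2. Control replicate 2 stood nearest to the acid-treated libraries (log2 fold change 1.55, SE 0.52, edgeR adjusted p = 0.276), and without it the log2 fold change was 2.55 and the gene was called (edgeR adjusted p = 0.00866). With any other library left out it was not called (edgeR adjusted p up to 0.687). Glyma.06G187000 (ARR6-like) gave 13.6, 9.33 and 9.16 CPM against 15.3, 17.1 and 19.6 CPM (log2 fold change 0.70, SE 0.23, edgeR adjusted p = 0.276).

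The most abundant type-A gene, Glyma.17G093900 (ARR5-like), was measured at 21.1, 19.2 and 22.5 CPM at pH 5.8 and 30.3, 27.9 and 26.9 CPM at pH 4.2 (log2 fold change 0.44, SE 0.17, edgeR adjusted p = 0.359). These 3 genes did not overlap between the pH-treatments, whereas the other 5 did. Of all genes tested, 7.17% lay wholly above the controls. Summed FPKM of the 11 genes was 62.1, 59.4 and 59.8 in control and 84.4, 88.5 and 90.7 in acid-treated roots, 1.45 times the control mean. The replicates of this sum lay close together, and control replicate 2 did not stand apart from the other controls.

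Type-B response regulators are the transcription factors that activate cytokinin target genes, and with 31 genes, 24 of them tested, they were the largest cytokinin class. Negative log2 fold changes were found for 16 of the 24, with a class median of -0.17, and 4 genes had an unadjusted p-value under 0.05, all with lower values at pH 4.2, where 7.61% of all genes were lower. Among the 4, Glyma.07G153900 passed the filter on low counts only through the control libraries, and without it 3 of 23 were lower (13.04%). Without such genes, 7.31% of all genes were lower. Acid-treated libraries lay wholly below the controls in the 4 lower genes, of which Glyma.07G153900 had to differ because of the filter. They lay wholly above the controls in 3 others. The shares of all genes were 9.24% below and 7.17% above. Glyma.18G204900 (ARR21) had 9.33, 7.62 and 9.16 CPM at pH 5.8 and 3.17, 5.41 and 4.34 CPM at pH 4.2 (log2 fold change -1.01, SE 0.28, edgeR adjusted p = 0.187). Glyma.08G100900 (ARR11) gave 16.1, 11.5 and 15.2 CPM against 7.13, 8.60 and 6.79 CPM (log2 fold change -0.92, SE 0.23, edgeR adjusted p = 0.151). In both genes the highest acid-treated library was below the lowest control.

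The type-B gene Glyma.17G030600 (ARR2) was measured at 64.6, 65.2 and 76.9 CPM at pH 5.8 and at 48.0, 44.3 and 52.6 CPM at pH 4.2 (log2 fold change -0.51, SE 0.19, edgeR adjusted p = 0.314). Another, Glyma.07G153900 (ARR21), was close to the floor in acid-treated roots, at 0.340, 0.424 and 1.002 CPM, against 2.06, 1.29 and 1.14 CPM in control. Its groups did not overlap, but it passed the filter only through the control libraries and so had to differ. In contrast, the most abundant type-B gene, Glyma.06G063500 (ARR12), had 50.8, 65.3 and 69.4 CPM at pH 5.8 and 82.6, 77.2 and 70.2 CPM at pH 4.2, so that its acid-treated libraries lay just above the controls (log2 fold change 0.31, SE 0.20, edgeR adjusted p = 0.622). The other 2 that lay wholly above were ARR12-like genes, Glyma.17G217100 with 23.7 against 31.0 CPM and Glyma.13G155400 with 1.45 against 2.42 CPM (means of control and acid-treated roots, n = 3), and neither was called. Summed FPKM of the 31 genes was 180 ± 19.8 in control and 161 ± 6.59 in acid-treated roots (SD, n = 3) and overlapped.

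**Figure D4:**
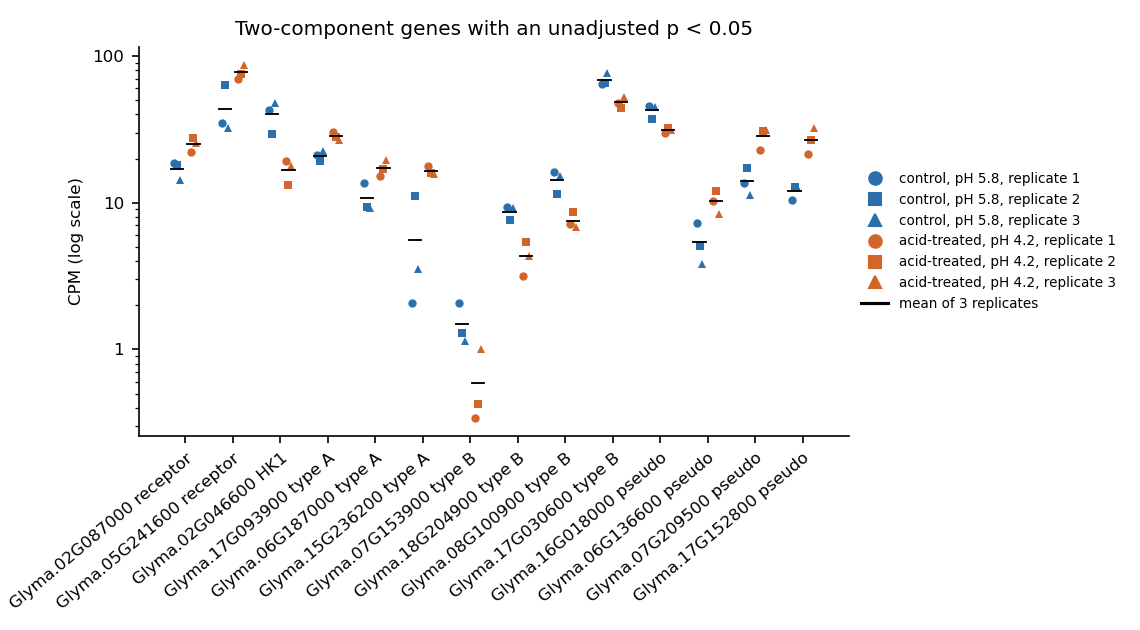
CPM on a log axis for each library (points) of the two-component genes with an unadjusted p-value under 0.05, with the mean of 3 replicates as a line. Receptor, HK1 (histidine kinase 1), type A, type B and pseudo (pseudo-response regulator) give the role. Acid-treated points of the 3 type-A genes lie above the controls, as in Glyma.17G093900 (26.9 to 30.3 against 19.2 to 22.5), and those of the 4 type-B genes below them. The type-B gene Glyma.07G153900 passed the filter on low counts only through the control libraries and so had to differ.

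Pseudo-response regulators share the receiver domain but not its phosphate acceptor, and several of them are part of the circadian clock. They entered the list by their name alone, with 25 genes of which 19 were tested. The 6 genes described as APRR2, a name outside the core clock set, carried the KEGG term of type-B response regulators. For Glyma.17G152800 (APRR2), the values were 10.4, 12.8 and 12.8 CPM at pH 5.8 and 21.6, 26.5 and 32.4 CPM at pH 4.2 (log2 fold change 1.16, SE 0.22, edgeR adjusted p = 0.0738 and 0.00226 from DESeq2). For Glyma.07G209500 (APRR2), they were 13.6, 17.2 and 11.2 CPM and 22.8, 30.9 and 31.4 CPM, respectively (log2 fold change 1.02, SE 0.23, edgeR adjusted p = 0.118 and 0.0153 from DESeq2). Neither gene overlapped between treatments, and without control replicate 2 both were called by edgeR (adjusted p = 0.0465 and 0.0417). Neither was called with any other library left out (edgeR adjusted p up to 0.321 and 0.446). Overlap was found in the other 4 APRR2 genes, with log2 fold changes from -0.28 to 0.30.

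The remaining 13 pseudo-response regulators tested had log2 fold changes from -0.48 to 0.92 with a median of 0.01, and DESeq2 called none of them. Acid-treated libraries lay wholly above the controls in 4 of the 13 (30.8%) and wholly below in 1 (7.69%), where the shares of all genes were 7.17% and 9.24%. Among the 13, Glyma.06G136600 (PRR95) had 5.39 ± 1.74 CPM at pH 5.8 and 10.2 ± 1.82 CPM at pH 4.2 (SD, n = 3), whereas Glyma.16G018000 (PRR95) had 42.5 ± 4.88 and 31.1 ± 1.26 CPM (SD, n = 3). The most abundant, Glyma.07G049400 (PRR95), overlapped, from 93.6 to 189 CPM at pH 5.8 and from 94.9 to 119 CPM at pH 4.2. Other clock genes (LHY, GIGANTEA, EARLY FLOWERING 4 and ADAGIO, 10 genes) had a summed FPKM of 135 to 194 in control and 114 to 138 in acid-treated roots. Of the 9 tested, 2 were higher and 1 lower at an unadjusted p-value under 0.05 from edgeR. The shares of all genes were 4.21% and 7.61%. The hour of harvest is not given in the sources used here, and its part in these values was not tested.

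Of the remaining cytokinin members, the cytokinin-regulated kinase gene Glyma.12G002400 overlapped between treatments, at 12.5 ± 6.64 CPM at pH 5.8 and 10.1 ± 2.12 CPM at pH 4.2 (SD, n = 3). The ARR22-like gene Glyma.19G171400, which resembles the type-C response regulators, had no count in 5 of the 6 libraries. Genes that act beside the members were taken from further descriptions. Histidine-containing phosphotransfer genes numbered 9 (4 tested), tRNA isopentenylation genes 2 and zeatin O-glucosyltransferase genes 4 (2 tested). Purine permease genes numbered 12 (5 tested) and ABCG14 genes 4 (3 tested). None of those tested was called, where 0.558% of all genes were called. At an unadjusted p-value under 0.05 from edgeR, 1 phosphotransfer gene and 2 purine permease genes were lower. At that p-value 1 zeatin O-glucosyltransferase gene was higher. The shares of all genes were 7.61% lower and 4.21% higher. Values of a zeatin O-glucosyltransferase gene, Glyma.10G108400, which stores cytokinin as a glucoside, were 0.681 ± 0.458 CPM at pH 5.8 and 2.59 ± 1.15 CPM at pH 4.2 (SD, n = 3, edgeR adjusted p = 0.233). The purine permease gene Glyma.06G221300 had 24.1 ± 10.6 CPM at pH 5.8 and 10.02 ± 1.89 CPM at pH 4.2 (SD, n = 3, edgeR adjusted p = 0.172, 0.0469 from DESeq2).

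When the members were summed by role, 6 of the 20 classes had FPKM sums that did not overlap between the pH-treatments. Higher sums at pH 4.2 were those of gibberellin 3-oxidases, cytokinin hydroxylases and type-A response regulators, and lower sums those of ent-kaurene oxidases, LOG genes and histidine kinase 1. Of single genes, 16.4% of all tested did not overlap in TMM-scaled CPM. The class sums use FPKM and include genes not tested, so that share is no baseline for them. They are given as a description.

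Members that were not tested had few counts. The 36 gibberellin genes without a test had mean counts of at most 11.5 per library, and 10 of them had 3 counts or fewer in the 6 libraries together. The 40 cytokinin genes without a test had mean counts of at most 10, and 9 had 3 counts or fewer. Most of the gibberellin genes not tested were 2-oxidases (20 genes). DESeq2, run without that filter, gave an adjusted p-value for 28 of these 76 genes and called 0 of them.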

How the data were processed

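RNA of 6 soybean root libraries was sequenced, 3 per pH-treatment. After read filtering, the authors used HISAT for mapping to Williams82.a2.v1, StringTie for new transcripts, Bowtie2 for mapping to the extended reference and RSEM for expression (versions not given in the sources used here). The authors deposited an expected count and an FPKM value per gene and library. FPKM divides by gene length and library size and was used to compare genes. Genes not listed in a library were set to 0. Identifiers carry the suffix of the build in the files. Role classes were read from the descriptions, and symbols come from RefSeq's table for Glycine_max_v4.0, matched by protein accession for 163 of 201 members.

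Expected counts were rounded and tested with edgeR 4.0.16 in R 4.3.3 (filterByExpr, TMM, robust quasi-likelihood fit), with Benjamini-Hochberg adjustment over all genes tested. Genes past an adjusted p of 0.05 with a change of 2-fold or more were DEGs. The standard error is the size of the log2 fold change over the square root of F. Alternatives were DESeq2 1.42.0 (the authors' tool), RLE factors, limma-trend, version 3.58.1, on log2 FPKM with 0.1 or 1 added, which understates the change of low genes, no filter, a mean count of at least 50, a replicate block and each library left out. With 3 libraries per group, an exact permutation test cannot go below p = 0.1.

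Named genes were those called, those with an unadjusted p-value under 0.05, a 2-fold change and no overlap between groups, and the most abundant gene of each class by FPKM. A few more were named after their values were seen: Glyma.15G002200, Glyma.20G153400, Glyma.11G145100, Glyma.05G241600, Glyma.02G087000, Glyma.06G187000, Glyma.08G100900, Glyma.17G030600, Glyma.17G217100, Glyma.13G155400, Glyma.06G136600, Glyma.16G018000 and the genes outside the word rule. The members and lists were chosen with earlier results of these data known. Plots used Python 3.11.15 with pandas 2.3.3 and matplotlib 3.10.9.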

Additional observations from a re-analysis of the deposited data

How the results depend on the processing

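Of 422 values of the 33 named genes tested under the alternatives, 0 reversed a call, 11 lost a call and 17 gained one, while some genes that were not called changed sign with 1 library left out (Glyma.02G136000, from -0.24 to 0.69 on the log2 scale). With DESeq2, 1060 genes were called over all genes, 6 cytokinin genes (3 higher, 3 lower) and 3 gibberellin genes (1 higher, 2 lower). Without the filter on low counts, 323 genes and 5 cytokinin genes were called, and 10 gibberellin genes had an unadjusted p-value under 0.05. With a mean count of at least 50, fewer genes were tested and 3 gibberellin genes had such a p-value. RLE factors and both limma-trend fits left the counts of called genes within 1.5 times of those reported. Replicate numbers are shared by the treatments. The deviations of same-numbered libraries correlated at -0.13, -0.05 and -0.37, so no effect shared by them was seen. With 3 libraries per group, these values cannot show whether same-numbered replicates were set up together. With the replicate block, edgeR called 61 genes, 0 cytokinin genes and 0 gibberellin genes (adjusted p = 0.0796 for Glyma.04G025100 and 0.0881 for Glyma.06G025200, and 0.143 for the DELLA gene Glyma.09G036500, whose call was also lost), and 0 of 6 libraries correlated best with their own number. Leaving out 1 library gave between 7 and 1122 DEGs over all genes, between 0 and 9 cytokinin genes, between 0 and 2 gibberellin genes called and between 6 and 10 gibberellin genes with an unadjusted p-value under 0.05. The highest counts came without control replicate 2, and the fewest DEGs without acid replicate 2. The causes were not tested. Genes below a mean count of about 10 could not be judged at this depth.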

Other observations

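Control replicate 2 was, of the 3 controls, the one nearest to the acid-treated mean on the log2 scale in 11 of the 21 cytokinin genes and in 2 of the 6 gibberellin genes with an unadjusted p-value under 0.05 from edgeR. Control replicate 1 was nearest in 6 and 3 of them, and control replicate 3 in 4 and 1. This count was made after the values had been seen.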
